A study of Mus musculus with 6 samples.

Results

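The homeostatic microglia identity genes examined here were 8 genes, Tmem119, Cx3cr1, Cx3cl1, Siglech, Olfml3, Selplg, Crybb1 and Slc2a5. They were taken by symbol from a count table of 33000 mouse genes, and all 8 passed the filter on low counts that left 15341 genes for testing. The libraries came from the frontal cortex of C57BL/6 mice at 3 months of age and were made with the Illumina TruSeq mRNA protocol. Of the 6 libraries, 3 were from mice homozygous for the GFAP-IL6 transgene and 3 from wild-type (WT) mice. In GFAP-IL6 mice the astrocyte promoter of Gfap drives the cytokine interleukin-6, so the cytokine is made by astrocytes. No other allele or agent was named for either group, and the labels did not say whether littermates were used.

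Microglia are the resident macrophages of the brain. In healthy tissue they carry a set of transcripts that sets them apart from other macrophages, and many of these transcripts are known to fall when microglia turn to an inflammatory or disease-associated state, while genes shared by all myeloid cells tend to rise. 7 of the 8 genes are placed in that set here, although not all are confined to microglia: Selplg is also present on many leukocytes. The eighth, Cx3cl1, encodes fractalkine, a membrane-anchored chemokine that in brain is made mainly by neurons. Its receptor, Cx3cr1, is on microglia, and signalling between them is a known route by which neurons restrain microglia.

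Library totals were 11591066 to 16877001 counts in WT and 7559524 to 11072008 counts in GFAP-IL6, so every GFAP-IL6 library was shallower than every WT library. The lowest count of any identity gene in any library was 36. The genotype labels matched the transcripts they concern: Il6 was counted 0, 2 and 0 times in the WT libraries (replicates 1, 2 and 3) against 12, 10 and 24 times in the GFAP-IL6 ones, and Gfap, the astrocyte filament gene, 878, 2059 and 1341 against 5773, 4889 and 7795 times. An Il6 read may come from the transgene or from the mouse gene. A pair of WT libraries stood apart. Markers of choroid plexus summed to 613 CPM (counts scaled to library size) in WT replicate 3 and to 4.18 to 59.8 CPM in the other 5 libraries, and markers of striatum summed to 400 CPM in WT replicate 2 and to 179 to 227 CPM elsewhere. The part of either in the results below was not tested, and the number of identity genes called higher is given without each of these libraries as well.

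The positions of the genes and the sequence around their starts are given first, since 6 of the 8 could be matched to a RefSeq table of promoters on GRCm38.p6. Each entry holds 250 bases before and 50 bases after the start of the gene as RefSeq places it. 4 of them are printed: the ligand and receptor pair Cx3cl1 and Cx3cr1, Olfml3 as the member with the largest change, and Siglech as the only matched member with a match to the STAT motif. Each is written 5′ to 3′ on the strand of the gene, and capitals mark matches to any of the motifs searched.
Cx3cl1, chr8:94771930-94772229, plus strand: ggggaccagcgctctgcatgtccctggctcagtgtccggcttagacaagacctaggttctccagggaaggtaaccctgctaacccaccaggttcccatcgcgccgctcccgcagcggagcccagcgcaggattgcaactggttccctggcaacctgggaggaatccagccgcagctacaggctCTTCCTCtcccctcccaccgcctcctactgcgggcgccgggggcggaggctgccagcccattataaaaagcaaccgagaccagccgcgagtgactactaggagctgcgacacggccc
Cx3cr1, chr9:120068247-120068546, minus strand: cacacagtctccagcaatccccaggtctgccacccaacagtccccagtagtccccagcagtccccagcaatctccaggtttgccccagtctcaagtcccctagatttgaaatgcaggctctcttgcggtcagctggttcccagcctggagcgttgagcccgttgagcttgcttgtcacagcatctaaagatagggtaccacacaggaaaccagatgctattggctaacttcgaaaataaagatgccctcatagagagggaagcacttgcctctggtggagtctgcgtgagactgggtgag
Olfml3, chr3:103737952-103738251, minus strand: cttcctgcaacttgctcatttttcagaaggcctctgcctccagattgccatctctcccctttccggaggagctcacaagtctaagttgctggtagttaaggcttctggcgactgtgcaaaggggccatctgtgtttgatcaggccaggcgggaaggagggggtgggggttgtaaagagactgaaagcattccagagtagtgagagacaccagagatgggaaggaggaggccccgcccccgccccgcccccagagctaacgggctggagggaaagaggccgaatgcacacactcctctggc
Siglech, chr7:55767934-55768233, plus strand: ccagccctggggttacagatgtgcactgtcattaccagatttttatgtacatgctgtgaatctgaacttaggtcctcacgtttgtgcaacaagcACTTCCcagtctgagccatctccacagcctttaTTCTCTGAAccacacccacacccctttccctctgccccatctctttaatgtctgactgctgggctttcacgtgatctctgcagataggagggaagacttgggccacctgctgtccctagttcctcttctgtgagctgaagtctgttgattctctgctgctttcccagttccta

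The motifs were TTCNNNGAA, the core bound by STAT factors, of which STAT3 acts downstream of the interleukin-6 receptor, and GGAAGT and GAGGAAG, which are parts of sites bound by PU.1, the lineage factor of myeloid cells. The last of these overlaps the letters of GGAAGT where both are present, and both strands were read. TTCNNNGAA was in 8.30% of all 32851 promoters of the table, GGAAGT in 23.8% and GAGGAAG in 13.6%. Among the 6 matched members each motif was in 1 promoter: TTCNNNGAA and GGAAGT in that of Siglech, where they began 123 and 156 bases before the start, and GAGGAAG in that of Cx3cl1, 67 bases before it. A match of letters is a description and not a bound site. The promoter of Cx3cl1 held 19 CpG dinucleotides and that of Cx3cr1 held 5, against a median of 7 over all promoters.

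The main comparison asked whether the identity genes were changed by chronic interleukin-6 in the cortex. None of the 8 was lower in GFAP-IL6. 4 were higher at an adjusted p under 0.05 (edgeR quasi-likelihood test, Benjamini-Hochberg over all genes tested): Olfml3, Crybb1, Tmem119 and Cx3cr1. Of all genes tested, 2.65% were higher and 0.209% lower by the same rule. At an unadjusted p under 0.05 there were 5 identity genes, all with a positive fold change, where 11.1% of all genes tested were higher by that rule, and DESeq2 and limma-voom also called 0 of the 8 lower. The median log2 fold change of the 8 was 0.52, and 0.63 without Cx3cl1, where that of all genes tested was -0.00. Because these were bulk tissue libraries, more cells of a type and more RNA per cell cannot be told apart.

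Only Olfml3 also had a log2 fold change over 1, the size threshold of the study, which 1.36% of all genes tested passed together with the adjusted p. For 6 of the 8 genes every GFAP-IL6 library exceeded every WT library, against 13.8% of all genes tested, and the groups overlapped for Cx3cl1 and Slc2a5. The number of identity genes called higher was 4 without WT replicate 2 and 3 without WT replicate 3. The 4 without WT replicate 2 were not the same genes. There Siglech passed (edgeR adjusted p = 0.0436) and Crybb1 did not (edgeR adjusted p = 0.0521). The number was also 3 without GFAP-IL6 replicate 2 or without GFAP-IL6 replicate 3, by DESeq2, and with every library thinned to the smallest total.

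**Figure D1:**
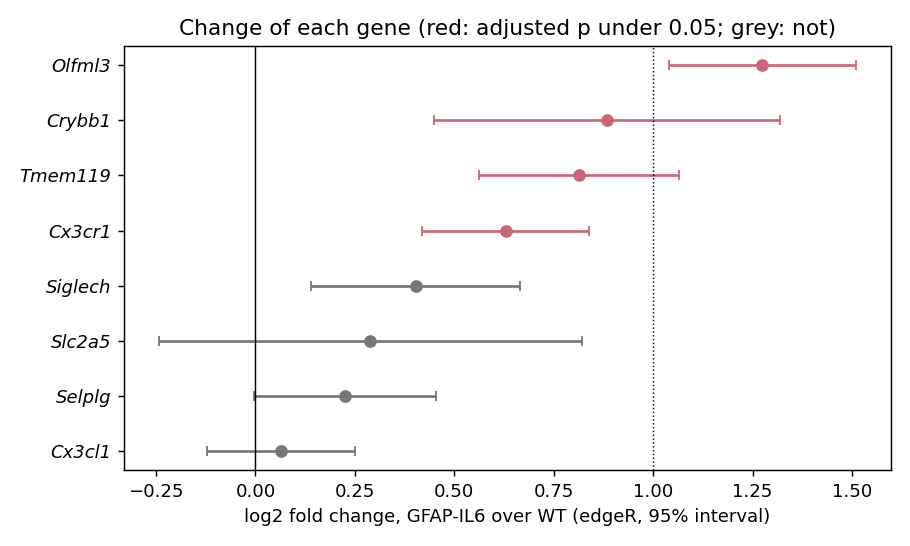
Log2 fold change of each of the 8 identity genes, GFAP-IL6 over WT, with its 95% interval from edgeR. Red marks an adjusted p under 0.05. The solid line is no change, the dotted line a log2 fold change of 1, and only the interval of Olfml3, from 1.04 to 1.51, lies wholly above the dotted line.

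Olfml3 encodes a secreted matrix glycoprotein of the olfactomedin family that is strong in microglia. The gene is on chromosome 3, 103722222 to 103738001, minus strand (GRCm38, GENCODE M21 annotation). Its level was 14.4, 17.9 and 14.6 CPM in WT replicates 1, 2 and 3 and 36.6, 37.6 and 39.6 CPM in GFAP-IL6. The groups stood far apart, and the lowest GFAP-IL6 library was above the highest WT library by more than the full range within either group. The log2 fold change was 1.27 ± 0.11 (SE, n = 3 per group; edgeR adjusted p = 2.1e-05), a fold of 2.42. No other listed gene of the olfactomedin family was called: of 8 tested, 0 were higher and 0 lower by edgeR, DESeq2 and limma-voom, 1 had an unadjusted p under 0.05, and their median log2 fold change was -0.14. Gldn, which encodes gliomedin, had the most negative value at -0.81 (adjusted p = 0.184), and Olfm3 stood at -0.20 (adjusted p = 0.261).

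Tmem119 encodes a transmembrane protein used as a marker that separates microglia from other macrophages. It lies on chromosome 5, 113793729 to 113800516, minus strand. The level was 18.5, 20.6 and 19.9 CPM in the WT libraries and 31.3, 32.0 and 40.7 CPM in the GFAP-IL6 libraries. The groups did not overlap, and GFAP-IL6 replicate 3 was the highest library. This was a log2 fold change of 0.81 ± 0.12 (SE; edgeR adjusted p = 0.00142), a fold of 1.76.

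Cx3cr1, the fractalkine receptor, is on chromosome 9, 119901616 to 120069879, minus strand. Its level was 51.7, 59.8 and 59.4 CPM in WT and 85.2, 80.7 and 98.7 CPM in GFAP-IL6. GFAP-IL6 replicate 3 was again the highest, and the groups were apart. On the log2 scale the difference was 0.63 ± 0.10 (SE; edgeR adjusted p = 0.00255), a fold of 1.55. Of its 4505 exon bases, 78 are shared with Gm33858 on the opposite strand, and whether strand was used in counting is not given in the sources used here.

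Crybb1 encodes a beta crystallin, a protein of the lens that microglia also express. It is on chromosome 5, 112255815 to 112269585, plus strand. It was counted 36, 49 and 48 times in the WT libraries and 52, 44 and 57 times in GFAP-IL6, which is 3.14, 2.92 and 3.01 CPM against 4.66, 5.81 and 6.36 CPM. The scaled levels of the groups were apart, although the raw counts overlapped. Its log2 fold change was 0.88 ± 0.20 (SE; edgeR adjusted p = 0.0329), a fold of 1.85. This call rested on few reads. The adjusted p was 0.0596 by DESeq2, 0.0621 with every library thinned to the smallest total, 0.0521 and 0.0813 without WT replicate 2 or 3, and 0.124 and 0.203 without GFAP-IL6 replicate 2 or 3. The other beta and gamma crystallins could not be compared, since 0 of 7 passed the filter on low counts and Crybb2 and Crygs had no count in any library.

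**Figure D2:**
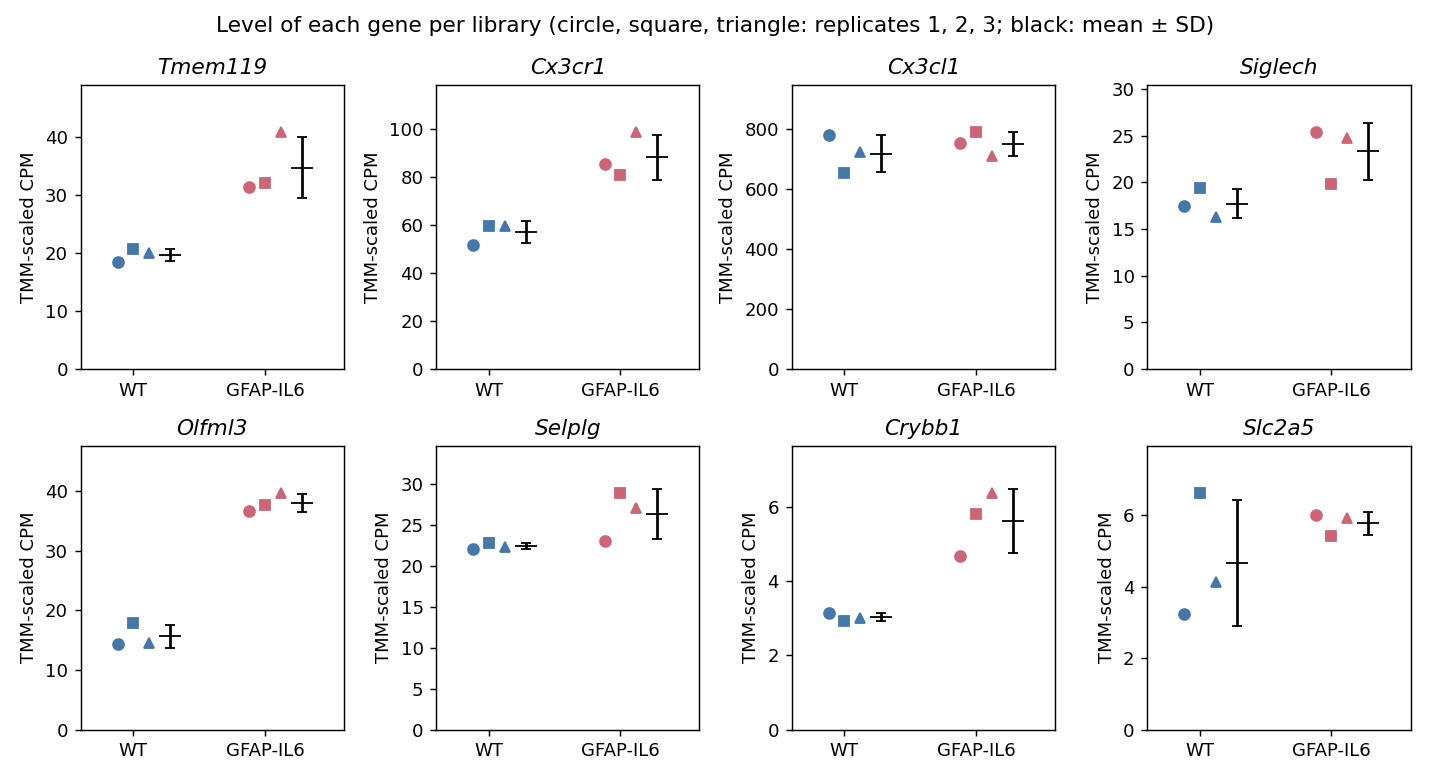
Level of each identity gene in the 6 libraries, in TMM-scaled CPM from 0, with circles, squares and triangles for replicates 1, 2 and 3 and the mean ± SD in black. In 6 panels all GFAP-IL6 libraries lie above all WT libraries, by a wide gap for Olfml3 and a narrow one for Siglech and Selplg, and in the panels of Cx3cl1 and Slc2a5 the groups overlap.

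4 identity genes did not pass the test. Siglech, which encodes a receptor of the Siglec family that signals through the adaptor DAP12, is on chromosome 7, 55768178 to 55778925, plus strand. It stood at 17.4, 19.4 and 16.3 CPM in WT and at 25.4, 19.8 and 24.8 CPM in GFAP-IL6. The groups were apart, but GFAP-IL6 replicate 2 lay just above WT replicate 2. The log2 fold change was 0.40 with a 95% interval of 0.14 to 0.67 (edgeR adjusted p = 0.103). The adjusted p was 0.0387 with no filter on low counts and 0.0436 without WT replicate 2, the library with the high striatal markers.

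Selplg encodes PSGL-1, a mucin-like ligand of selectins that is present on many leukocytes as well as on microglia. It lies on chromosome 5, 113818536 to 113832644, minus strand. Its level was 22.1, 22.8 and 22.4 CPM in WT and 23.0, 28.9 and 27.1 CPM in GFAP-IL6. GFAP-IL6 replicate 1 was close to the WT libraries, which varied little among themselves. On the log2 scale the difference was 0.22 with a 95% interval of -0.00 to 0.45 (edgeR adjusted p = 0.252).

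Slc2a5, which encodes the fructose transporter GLUT5, is on chromosome 4, 150119283 to 150144169, plus strand. It stood at 3.22, 6.62 and 4.14 CPM in WT and at 6.01, 5.41 and 5.92 CPM in GFAP-IL6. WT replicate 2 was above every GFAP-IL6 library, and the WT coefficient of variation was 37.7%. The log2 fold change of 0.29 had a 95% interval of -0.24 to 0.82, which spans both a fall and a rise (edgeR adjusted p = 0.525).

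Cx3cl1, the neuronal ligand, is on chromosome 8, 94772009 to 94782427, plus strand. Its level was 779, 654 and 722 CPM in WT and 754, 790 and 710 CPM in GFAP-IL6. The groups overlapped, and the log2 fold change was 0.06 with a 95% interval of -0.12 to 0.25 (edgeR adjusted p = 0.702). Over the 6 libraries its Pearson r with the other members lay between -0.53 and 0.34, whereas the 21 pairs among those 7 had r of 0.40 to 0.99. These correlations describe 6 libraries that share their group difference, and are no test.

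Levels were compared between genes per length, as TPM, a share of all transcripts that is scaled by gene length. In WT the order of the mean levels was Cx3cl1 (604 ± 70.1 TPM, SD, n = 3), Cx3cr1 (42.2 ± 2.46), Selplg (33.6 ± 0.451), Tmem119 (24.3 ± 0.682), Siglech (14.9 ± 1.05), Crybb1 (9.24 ± 0.596), Olfml3 (7.91 ± 0.785) and Slc2a5 (4.07 ± 1.41). Among neighbours in this order only Crybb1 and Olfml3 overlapped between libraries. In GFAP-IL6 the order was Cx3cl1 (662 ± 34.8 TPM), Cx3cr1 (68.7 ± 7.22), Tmem119 (45.1 ± 6.69), Selplg (41.4 ± 4.35), Siglech (20.7 ± 2.85), Olfml3 (20.2 ± 0.717), Crybb1 (18.0 ± 2.64) and Slc2a5 (5.34 ± 0.335). There Tmem119 overlapped Selplg, and Siglech, Olfml3 and Crybb1 overlapped their neighbours. Tmem119 stood above Selplg, and Olfml3 above Crybb1, in the means of GFAP-IL6 but below them in the means of WT. The order of genes depends on the lengths used. Selplg had 1855 bases in the lengths that came with the counts but 4272 exon bases in the GENCODE M21 annotation. For Tmem119 these were 2242 and 2315. A longer length lowers the TPM of Selplg, so its place above Tmem119 in WT holds only for the lengths used here. The 7 genes without Cx3cl1 summed to 136 ± 3.75 TPM in WT and 219 ± 18.3 TPM in GFAP-IL6, a ratio of 1.61 (exact two-sided permutation p = 0.1, the smallest that 3 against 3 can give).

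**Figure D3:**
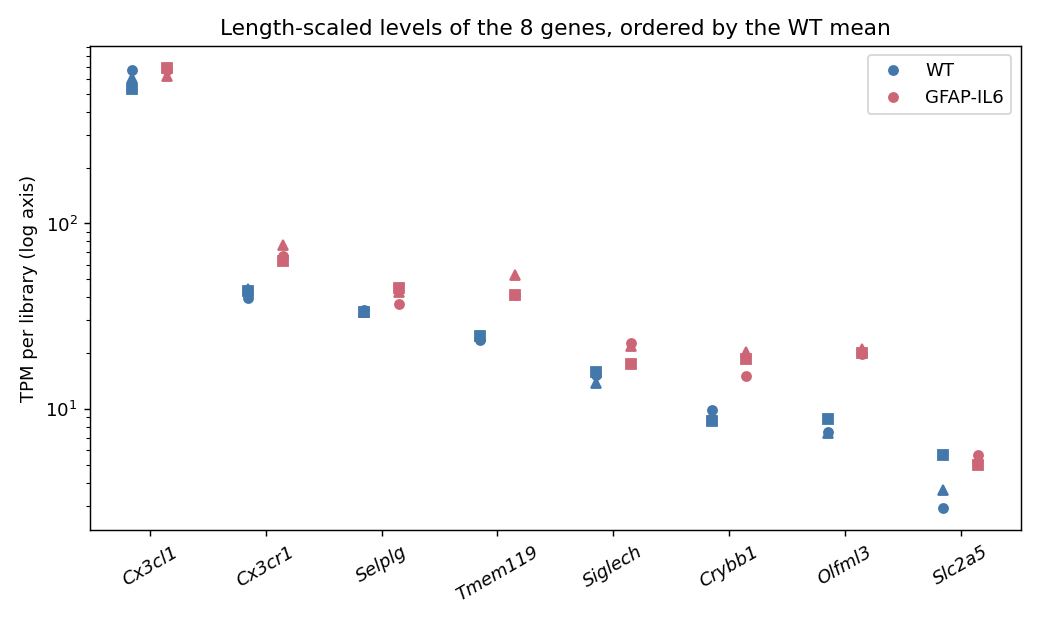
TPM of the 8 identity genes in each library on a log axis, ordered by the WT mean, with WT in blue and GFAP-IL6 in red and symbols for replicates as above. The neuronal ligand Cx3cl1, near 604 and 662 TPM, stands above every microglial gene in both groups, and Olfml3 moves from 7.91 to 20.2 TPM.

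A ratio of 2 genes within a library does not depend on its scaling. Its size depends on the gene lengths used, but its relative change between groups does not. Cx3cl1 was 17.1, 12.4 and 13.7 times Cx3cr1 in the WT libraries and 10.0, 11.1 and 8.13 times in GFAP-IL6. The ligand was thus less in excess of its receptor transcript in every GFAP-IL6 library, with means of 14.4 ± 2.41 and 9.73 ± 1.48 (SD, n = 3). Tmem119 was 0.691, 0.745 and 0.737 times Selplg in WT and 1.12, 0.914 and 1.24 times in GFAP-IL6. Tmem119 was 0.597, 0.575 and 0.559 times Cx3cr1 in WT and 0.613, 0.661 and 0.689 times in GFAP-IL6, a small but non-overlapping difference. Each of these 3 ratios, and 2 more of Olfml3 to Crybb1 and of Olfml3 to Tmem119, had an exact two-sided permutation p of 0.1, which this design cannot go below, also after adjustment over the 5. The pairs were chosen after the values were seen.

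**Figure D4:**
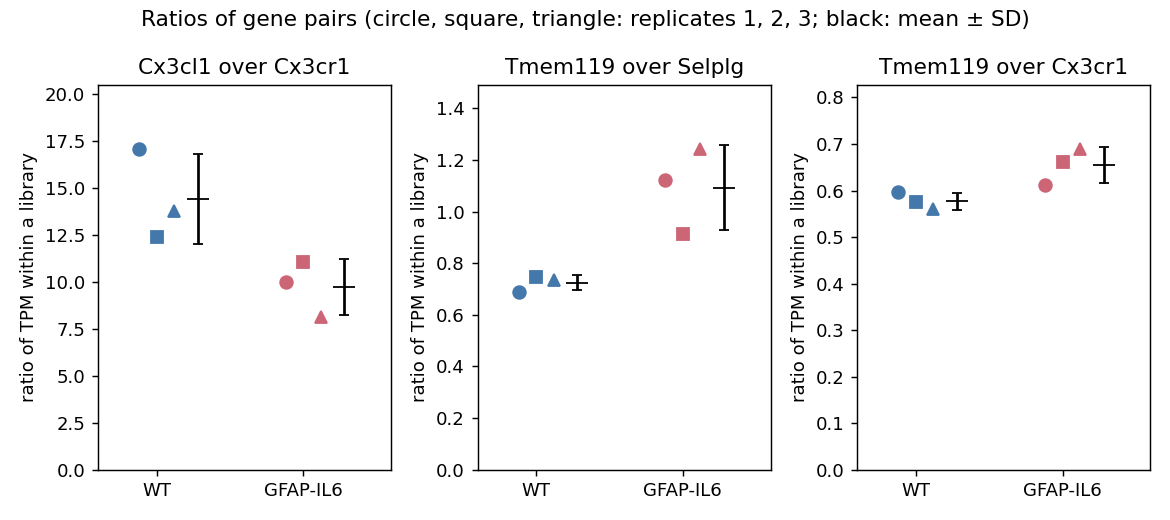
Ratio of the TPM of 2 identity genes within each library, on axes from 0, with the mean ± SD of each group in black. The size of a ratio depends on the gene lengths used, and its direction between groups does not. Cx3cl1 over Cx3cr1 is lower in all 3 GFAP-IL6 libraries (means 14.4 and 9.73), and Tmem119 over Selplg (0.724 and 1.09) and Tmem119 over Cx3cr1 (0.577 and 0.654) are higher in all 3.

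The identity genes were set against a list of genes of microglia and other myeloid cells, called pan-myeloid here. Of 15 pan-myeloid genes tested, 14 were higher and 0 lower by edgeR, with a median log2 fold change of 1.50, and DESeq2 called all 15. At an unadjusted p under 0.05 there were 15, all positive. Itgam, the integrin CD11b, rose by 2.03 (adjusted p = 3.01e-07) and C1qb, a complement subunit, by 1.54 (adjusted p = 3.85e-06) on the log2 scale. The log2 level of each identity gene was therefore taken relative to the mean of the pan-myeloid genes in the same library. On this scale 7 of the 8 were lower in all GFAP-IL6 libraries than in all WT libraries, but so were 96.3% of all genes tested, so this count says nothing particular about the identity genes. The difference was -0.55 for Crybb1, -0.59 for Tmem119, -0.77 for Cx3cr1, -1.01 for Siglech, -1.04 for Slc2a5, -1.17 for Selplg and -1.33 for Cx3cl1, each with an exact permutation p of 0.1 (0.114 adjusted over the 8). Olfml3 was the exception, at a difference of -0.12 with overlapping groups (exact permutation p = 0.3). It was -0.07 without WT replicate 1 or without GFAP-IL6 replicate 3 and -0.20 without WT replicate 3.

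Csf1r, the receptor for the survival factor of microglia and itself in the pan-myeloid list, gave a reference of 1 gene. Relative to it Olfml3 was higher in every GFAP-IL6 library, by 0.41, which held for 0.906% of all genes tested. Tmem119 (-0.06) and Crybb1 (-0.02) overlapped between groups, so their levels per Csf1r were not distinguishable. The other 5 identity genes were lower in all GFAP-IL6 libraries, which was so for 88.9% of all genes tested. Relative to the mean of 12 other homeostatic microglia genes, Olfml3 (0.79), Crybb1 (0.36) and Tmem119 (0.31) were higher in all GFAP-IL6 libraries, against 1.94% of all genes tested. Cx3cl1 (-0.42) and Selplg (-0.27) were lower, against 64.1%. All of these had exact permutation p-values of 0.1 or more.

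Of those 12 other homeostatic genes, 4 were higher and 0 lower by edgeR, and their median was 0.45 on the log2 scale, near the 0.52 of the identity genes. DESeq2 and limma-voom called 4 each, and 9 had an unadjusted p under 0.05. P2ry12, the purinergic receptor that guides microglial processes, was at 36.1, 55.6 and 47.0 CPM in WT and 38.2, 33.8 and 43.1 CPM in GFAP-IL6. Its groups overlapped, and its log2 fold change of -0.27 did not pass the test (adjusted p = 0.291).

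**Figure D5:**
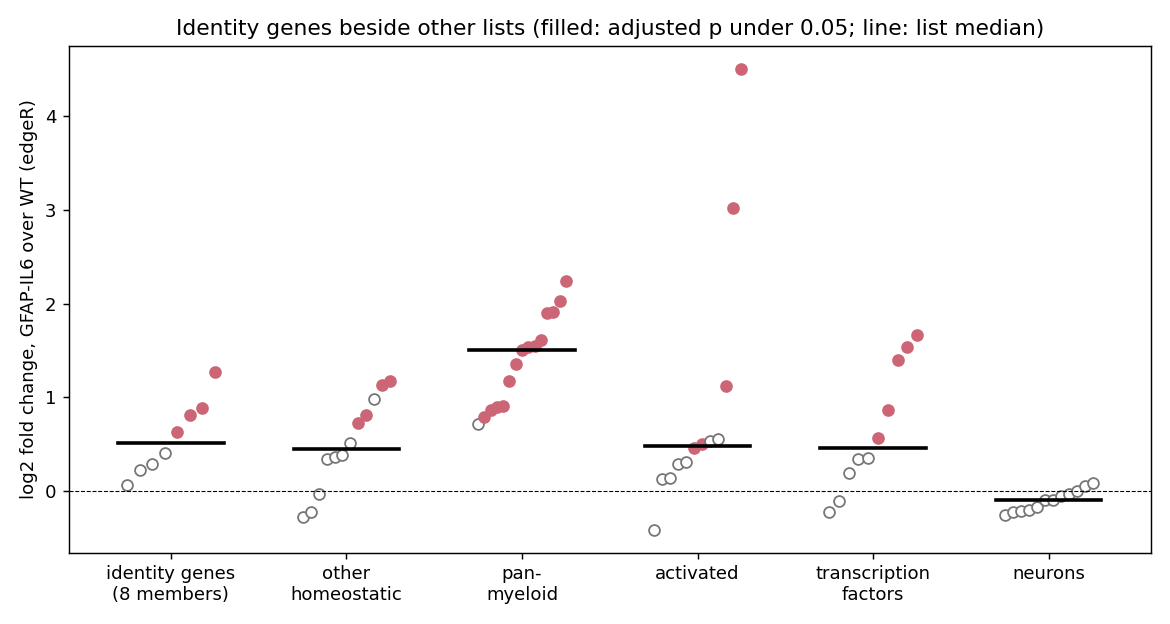
Log2 fold change (edgeR, GFAP-IL6 over WT) of the 8 identity genes and of the tested genes of 5 other lists, filled where the adjusted p was under 0.05, with the list median as a line. The median of the identity genes (0.52) is near those of the other homeostatic (0.45) and transcription factor (0.46) lists, below the pan-myeloid one (1.50) and above that of neurons (-0.10). The highest point among activated genes is Cst7, with 1 to 2 counts per WT library, whose fitted value is no bound.

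Among genes of activated and disease-associated microglia, 5 of 12 tested were higher and 0 lower by edgeR, with a median log2 fold change of 0.48. Bulk libraries do not show which cells a transcript came from, so this median need not describe microglia alone. Ccl6, Cst7 and Itgax reached the minimum of the low-count filter in all GFAP-IL6 but not in all WT libraries, and without them 3 of 9 were higher, with a median of 0.32. Trem2, a lipid receptor that signals through DAP12, rose by 1.13 (adjusted p = 0.000289). Cst7, an inhibitor of cysteine proteases, was counted 1, 2 and 1 times in the WT libraries and 18, 22 and 22 times in the GFAP-IL6 ones, which is at least 11.1-fold higher when WT is set to 3 counts per library, and the median of the 12 stayed at 0.48 with Cst7 at that bound. Lpl, lipoprotein lipase, had a value of -0.41 (adjusted p = 0.134). Of 10 transcription factors of microglia, 5 were higher and 0 lower by edgeR, with a median of 0.46. Spi1, which encodes PU.1, rose by 1.54 (adjusted p = 0.000908) and Irf8 by 1.40 (adjusted p = 0.000389), and Mef2c, which neurons also express, stood at -0.22 (adjusted p = 0.207).

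The partners of the identity genes were described by the same counts. Some lists share genes, so their counts are not separate. Ctss, Spi1 and the DAP12 gene Tyrobp are also pan-myeloid genes. Sall1 is in both the other homeostatic and the transcription factor list. For the fractalkine pair, 1 of 6 genes of ligand shedding and receptor coupling was higher and 0 lower by edgeR: Ctss, the protease cathepsin S, which can release soluble fractalkine, rose by 1.90 (adjusted p = 7.45e-06). Itgb3 and Itgav, which encode an integrin that binds fractalkine, stood at 0.49 (adjusted p = 0.134) and -0.10 (adjusted p = 0.481). For Siglech, 5 genes of the Siglec family and DAP12 were tested. Of these, Cd22 and Siglece reached the minimum of the low-count filter in all GFAP-IL6 but not in all WT libraries, and among the other 3 there were 2 higher and 0 lower by edgeR. Cd33, a Siglec of myeloid cells, rose by 1.06 (adjusted p = 0.00217), and Cd22 went from 0, 1 and 4 counts to 14, 18 and 19, while Mag, the Siglec of myelin, stood at -0.12 (adjusted p = 0.737).

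For Selplg, 3 of 6 tested genes for selectins and the enzymes and receptors of PSGL-1 were higher and 0 lower by edgeR. Gcnt1, a glycosyltransferase that builds selectin-binding glycans, rose by 1.43 (adjusted p = 0.000742) and Vsir, the receptor VISTA, by 0.58 (adjusted p = 0.0135), while the sialyltransferase gene St3gal4 had -0.30 (adjusted p = 0.203). For Slc2a5, 1 of 8 tested sugar transporter and ketohexokinase genes was higher and 0 lower: Slc2a1, the glucose transporter of the blood-brain barrier and glia, rose by 0.70 (adjusted p = 0.00331). The median of that list was -0.03, and Slc2a12 stood at -0.26 (adjusted p = 0.316).

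Markers of other cell types were read beside these values. Of 12 markers of infiltrating leukocytes, 0 passed the filter on low counts, Cd3d had no count in any library, and the list summed to 0.697 to 1.79 CPM in WT and 2.38 to 3.68 CPM in GFAP-IL6. Of perivascular macrophage markers 4 were tested and 0 were higher or lower by edgeR, DESeq2 or limma-voom, with 0 at an unadjusted p under 0.05, a median of 0.22 and sums of 8.04 to 13.9 CPM in WT and 9.68 to 16.5 CPM in GFAP-IL6. Mrc1, the mannose receptor, stood at 0.26 (adjusted p = 0.614) and F13a1, a coagulation factor subunit, at 0.50 (adjusted p = 0.45). Of 12 neuronal genes 0 were higher or lower by these tools. At an unadjusted p under 0.05 (edgeR) there were 5, all with a negative fold change. The share of all genes tested that were lower by that rule was not counted. The median of the 12 neuronal genes was -0.10. Stmn2, a microtubule regulator, and Thy1, a surface glycoprotein, stood at -0.25 (adjusted p = 0.154) and -0.21 (adjusted p = 0.179). The 5 blood markers had 0 calls by these tools, 0 at an unadjusted p under 0.05 and sums of 30.5 to 39.5 CPM in WT and 26.0 to 35.7 CPM in GFAP-IL6.

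The genes whose profile over the 6 libraries was most like the mean standardized log2 CPM of the 8 identity genes were Mpeg1 (Pearson r = 0.999), Gfap (0.999), C1qb (0.998), Laptm5 (0.998) and Bin2 (0.998), among 12083 candidates with a mean of at least 5 CPM. Of these, 4 are known from microglia and other immune cells, and Gfap from astrocytes. The r describes 6 libraries that fall into the compared groups and is no test.

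The identity genes lay on 6 chromosomes, with 3 on chromosome 5. Tmem119 and Selplg are neighbours there, 18019 bases apart with no tested gene between them, and had log2 fold changes of 0.81 and 0.22. For the 14 other nearest tested neighbours of the 8 genes the median was -0.04 on the log2 scale, with a range of -0.93, at Ccl17 beside Cx3cl1, to 0.58, at Gpr157 beside Slc2a5. By edgeR, DESeq2 and limma-voom 0 of these 14 were higher or lower, and 4 had an unadjusted p under 0.05 by edgeR. Of those 4, Ccl17 and Syt6 had negative values and Gm26953 and Gpr157 positive ones.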

How the data were processed

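Frontal cortex RNA from 3 WT and 3 GFAP-IL6 mice was measured by TruSeq mRNA sequencing. The authors aligned the reads with STAR (2.4) and counted them per gene with featureCounts of the Subread package, per the labels, and deposited raw counts in 1 table, with no value normalized. The study's methods name a mouse genome build, while the processing notes name a human one. Positions here come from a GENCODE M21 annotation on GRCm38, and gene chromosomes and strands in the table matched it for all 8 members.

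Counts were tested with edgeR 4.0.16 in R 4.3.3 (quasi-likelihood, TMM scaling, filterByExpr, Benjamini-Hochberg over 15341 genes, threshold 0.05), group being the only term. CPM used TMM-scaled totals, and TPM used the lengths in the table. Members and gene lists were chosen with earlier results of these data known, so lists are described by counts and medians without a set test. Genes named are the 8 members, per list the 2 tested genes of smallest p and the one of most negative change, Il6 and Gfap, the 5 most similar profiles and the neighbours. Other genes were named after their values were seen. Some genes that this rule names are not reported here.

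Library pairs differed by more than sampling noise (chi-square per degree of freedom 2.23 to 20.1), so none was counted as a repeat. Replicates are separate mice by the study's methods. Totals of 7559524 to 16877001 counts set the precision, and intervals are 95%. Alternatives were no low-count filter, a mean CPM of at least 1, DESeq2 size factors, library totals, DESeq2 1.42.0, limma-voom 3.58.1, thinning, a replicate block and leaving out each library.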

Additional observations from a re-analysis of the deposited data

How the results depend on the processing

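Over 14 alternatives, Tmem119 (log2 fold change 0.69 to 0.89), Cx3cr1 (0.55 to 0.69) and Olfml3 (1.22 to 1.39) passed the test each time, Crybb1 passed in 8 and Siglech in 2, and Selplg, Slc2a5 and Cx3cl1 in 0. The number of members higher was 3 to 5 and the number lower was 0 throughout. The number past a log2 fold change of 1 was 1 to 2 when 1 library was left out, with 2 (Olfml3 and Crybb1) without GFAP-IL6 replicate 1. Slc2a5 moved to 0.63 without WT replicate 2 (adjusted p = 0.13, edgeR), to 0.11 without WT replicate 1, to 0.19 without WT replicate 3 and to 0.55 with thinning, past the test in none, and Cx3cl1 to -0.00013 without WT replicate 2, a change of sign. The level relative to myeloid genes turned positive with other homeostatic genes as the reference for Tmem119 (0.31), Cx3cr1 (0.14), Olfml3 (0.79) and Crybb1 (0.36), and with Csf1r for Olfml3 (0.41), since each reference rose by another amount. With a replicate block 4 members were higher, 0 lower and 1 past the fold, and 750 genes were called over the table, against 439 without it. Same-numbered libraries deviated together only weakly (r = 0.0996, 0.0147 and 0.0211), against r of -0.0770 to 0.0524 for differently numbered ones. So few values cannot decide whether the numbers pair the libraries. Library totals as the only scaling moved the median of all genes to 0.02. Crybb1 had the fewest reads, 36 to 57 per library, and passed the test at full depth but not when thinned.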
